A study of Mus musculus with 6 samples.

Results

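The 9 genes described here encode enzymes of the tricarboxylic acid cycle: Cs, Idh2, Idh3a, Idh3b, Idh3g, Ogdh, Suclg1, Fh1 and Mdh2. They were picked out by symbol from a table of 34714 gene symbols, by a rule that uses no measured value, and the subunits of succinate dehydrogenase were left out of the group. All 9 passed the filter on low counts, which left 15788 genes. In the gastrocnemius (Gas) muscle of 8-week-old mice, no member passed the test between animals without miR-92b, a microRNA, and wild-type animals. The fitted log2 fold changes lay between -0.09 and 0.05, and the 95% intervals of 8 members lay within fold changes of 0.816 to 1.21. That of Idh2, the member with the widest interval, was 0.758 to 1.24.

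RNA was sequenced from the Gas muscle of 3 wild-type (WT) and 3 miR-92b knockout (M92KO) mice, with 1 library for each mouse, to find how loss of miR-92b changes gene expression in muscle. All mice were 8 weeks old and untreated and had free access to standard food and water, except when fasted. Per the methods they were males, and mice were fasted overnight before muscle was collected. The methods do not say separately whether the sequenced mice were fasted. M92KO mice carry a global deletion (strain C57BL/6JGpt-Mir-92bem22Cd549/Gpt), so that the deletion is not limited to muscle fibres. The WT mice were age-matched C57BL/6 animals, and the labels do not say that they were littermates of the M92KO mice.

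The tricarboxylic acid cycle runs in the mitochondrial matrix. It oxidizes the acetyl group of acetyl-CoA, which comes from glucose, fatty acids and amino acids, to carbon dioxide, and it delivers NADH and FADH2 to the respiratory chain. In skeletal muscle the cycle speeds up during contraction, mainly through control of the dehydrogenases by calcium, ADP and the ratio of NADH to NAD, and muscles rich in oxidative fibres hold more of its enzymes than muscles rich in glycolytic fibres. The activity of citrate synthase, the product of Cs, is widely used as a measure of mitochondrial content.

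A microRNA pairs through its seed, bases 2 to 8, with sites in the 3′-UTR of an mRNA. The mature miR-92b strands from RefSeq are shown because these are the sequences that M92KO mice lack, with the seed in capitals. On GRCm38 they lie on the minus strand at chr3:89227126-89227147 for the 3p strand and chr3:89227165-89227188 for the 5p strand.
mmu-miR-92b-3p: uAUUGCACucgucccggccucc
mmu-miR-92b-5p: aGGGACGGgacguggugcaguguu

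Annotated 3′-UTRs of the members were searched for the complement of each seed, which is GTGCAAT for the 3p strand and CCGTCCC for the 5p strand (a 7mer, or an 8mer when an A follows). The shorter 6mers TGCAAT and CGTCCC were searched as well. Such a 6mer followed by an A (TGCAATA or CGTCCCA) also counted as a 7mer. Ogdh was the only member with a 7mer match, to miR-92b-3p, in the 3′-UTR at chr11:6355979-6355985 on the plus strand. A 6mer to miR-92b-3p lay in the 3′-UTR of Idh3a at chr9:54603509-54603514, and a 6mer to miR-92b-5p lay in the 3′-UTR of Ogdh at chr11:6355764-6355769, both on the plus strand. These 3 stretches of the members are shown with the matching letters in capitals, so that they can be read against the seeds above.
Ogdh, chr11:6355968-6355997, 7mer to miR-92b-3p: ccatgcccccaGTGCAATcctccagggtag
Idh3a, chr9:54603498-54603527, 6mer to miR-92b-3p: aacaaaaccctTGCAATggatgcacatgat
Ogdh, chr11:6355753-6355782, 6mer to miR-92b-5p: cactgtccacaCGTCCCttcgctgtgccac

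A 7mer or 8mer to miR-92b-3p stood in 1 of 9 members, against 14.5% of the 13665 tested genes with an annotated 3′-UTR, and a match of at least 6 letters stood in 2 of 9, against 27.4%. For miR-92b-5p, a 7mer or 8mer stood in 0 of 9 members, against 5.93%, and a match of at least 6 letters in 1 of 9, against 10.2%. The longest 3′-UTRs of the members ran from 107 bases in Idh3g to 1347 bases in Cs, and the median over tested genes was 1188 bases. Cs and Idh3a alone were above that median. A match is a description of letters and not of a site in use.

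Library totals were 38246649 to 48209846 counts in WT and 33160508 to 37019640 counts in M92KO mice, with no overlap between the genotypes. The floor, set at 3 counts, was 0.0622 to 0.0905 CPM (counts scaled to the TMM-normalized library size). Member counts ran from 4043 for Idh2 to 57095 for Cs. The first M92KO library stood apart from its replicates: its counts differed from those of the second and the third M92KO libraries with a chi-square of 57.4 per degree of freedom in both pairs, as compared with 10.9 between the second and the third and 12.8 to 29.6 among WT libraries. Of the 15788 genes tested with edgeR's quasi-likelihood test, 0 (0%) had an adjusted p-value under 0.05, the smallest being 0.124, while DESeq2 called 312 (1.98%). At an unadjusted p-value of 0.05, edgeR called 1955 genes (12.4%), of which 863 (5.47%) were higher and 1092 (6.92%) lower in M92KO mice. The balance turned with the study's steps (quantile normalization and limma), with 1244 of 2287 higher and 1043 lower, and without the first M92KO library, with 1545 of 2984 higher and 1439 lower. The row of miR-92b itself was not analysed here, so the deletion was not checked in these libraries.

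At the same unadjusted threshold 0 of 9 members were called by edgeR, and in 0 of 9 did the WT and M92KO values fall into separate ranges, as compared with 18.4% of all genes tested. DESeq2 called 0 of 9 after adjustment. The log2 fold change was above 0 in 4 of 9 members (50% of all genes tested), with a median of -0.02 over the members and of 0.00 over all genes tested. Of all genes tested, 61.2% had a larger absolute log2 fold change than Cs, the member with the largest. Exact two-sided permutation tests on the 3 libraries of each genotype gave p-values of 0.3 to 0.8 for the members, where 0.1 is the smallest value that 3 against 3 allows.

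**Figure D1:**
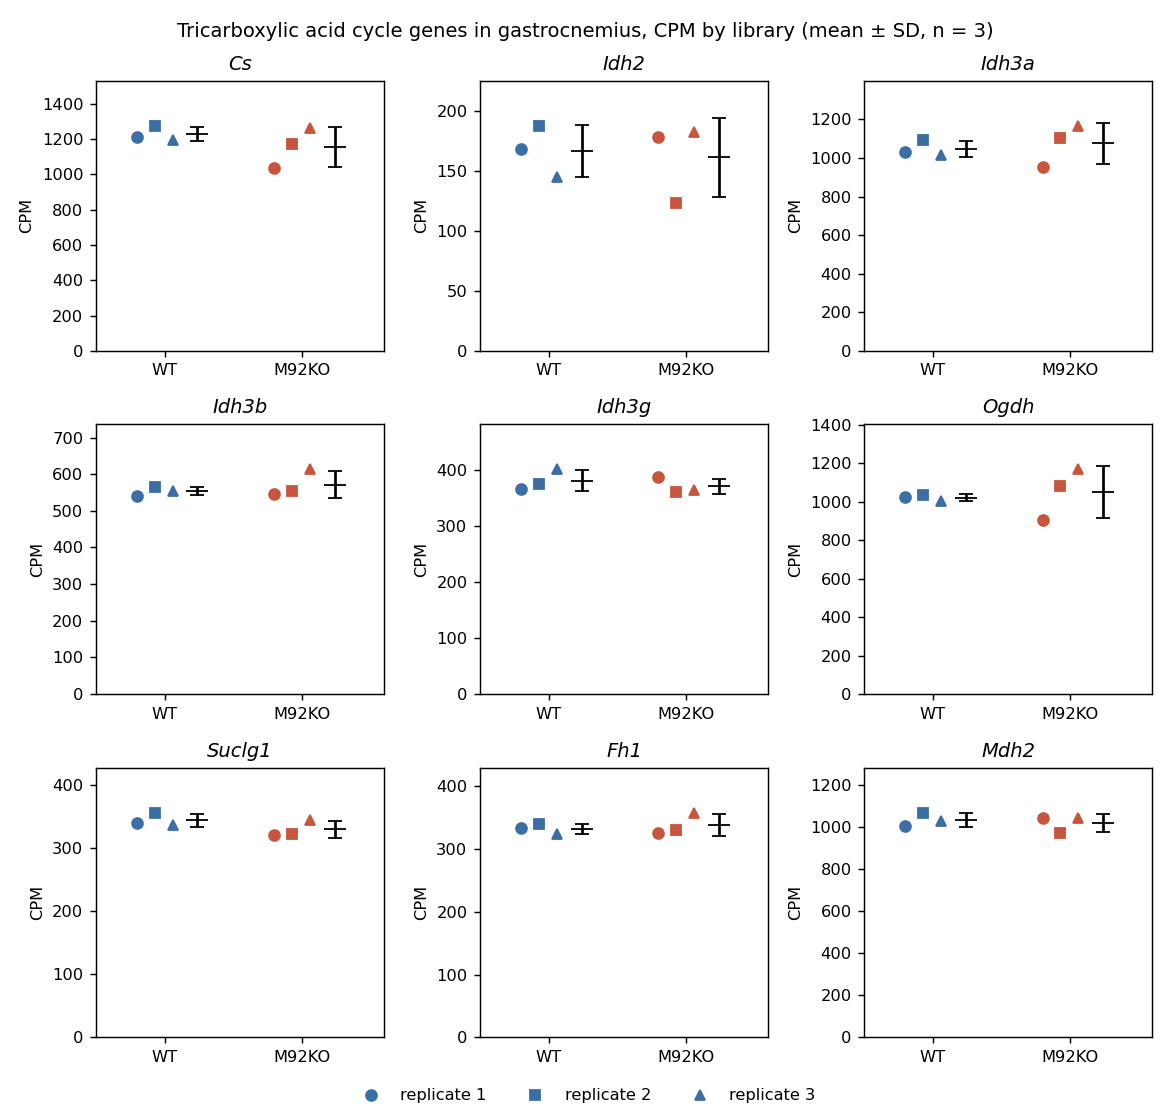
Levels of the 9 members in Gas muscle, in CPM on axes that start at 0, with a symbol for each of the 6 libraries and bars for the mean ± SD of 3 mice. WT (blue) and M92KO (red) values share their range in all 9 panels, and the M92KO values are the wider set in 8 of them on a log scale.

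Cs encodes citrate synthase, which joins acetyl-CoA to oxaloacetate and so opens the cycle (GRCm38 chr10:128337734-128362479, plus strand). Its level was 1213, 1274 and 1196 CPM in the WT libraries and 1034, 1170 and 1260 CPM in the M92KO libraries, which makes 1228 ± 40.8 and 1154 ± 114 CPM (SD, n = 3). The first and second M92KO libraries lay below every WT library and the third lay within the WT range. The log2 fold change of -0.09 (SE 0.09, 95% interval -0.29 to 0.12) did not pass the test, with an adjusted p-value of 0.744 in edgeR.

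Idh3a, Idh3b and Idh3g encode the subunits of the NAD-dependent isocitrate dehydrogenase, the calcium- and ADP-sensitive enzyme that turns isocitrate into 2-oxoglutarate, with Idh3a carrying the catalytic subunit. Idh3a (chr9:54586334-54604661, plus strand) had 1033, 1092 and 1014 CPM in WT and 955, 1105 and 1166 CPM in M92KO libraries. The first M92KO library was the lowest of the 6 and the others were above every WT library, so the ranges crossed. Idh3b (chr2:130279309-130284547, minus strand) had 541, 564 and 555 CPM in WT and 547, 553 and 613 CPM in M92KO libraries, and only the third M92KO library lay outside the WT range. Idh3g (chrX:73778963-73786897, minus strand) had 365, 375 and 401 CPM in WT and 386, 361 and 363 CPM in M92KO libraries. Here the order was the other way round, with the second and the third M92KO libraries below every WT library and the first within the WT range.

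By genotype these levels were 1046 ± 40.6 and 1075 ± 108 CPM for Idh3a, 553 ± 11.4 and 571 ± 36.7 CPM for Idh3b, and 380 ± 18.5 and 370 ± 14.1 CPM for Idh3g (mean ± SD, n = 3, WT first). The log2 fold changes were 0.04 (SE 0.09), 0.05 (SE 0.07) and -0.04 (SE 0.07). None of them passed the test in edgeR (adjusted p-values 0.904, 0.851 and 0.868). Idh3b and the neighbouring gene Nop56 share 5 exon bases on opposite strands, and no other member shares exon bases with another annotated gene.

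Ratios of counts between the 3 subunits within a library do not depend on library scaling. Their values carry the lengths of the genes, which drop out of the difference between genotypes. The ratio of Idh3b to Idh3a counts was 0.524, 0.517 and 0.548 in WT and 0.573, 0.500 and 0.526 in M92KO libraries. For Idh3g to Idh3a it was 0.353, 0.344 and 0.395 in WT and 0.405, 0.327 and 0.312 in M92KO libraries. The first M92KO library had the highest value of the 6 in both ratios, and the ranges of the genotypes crossed. The ratio of Idh3g to Idh3b was 0.674, 0.666 and 0.722 in WT and 0.706, 0.653 and 0.593 in M92KO libraries. M92KO minus WT differences on the log2 scale were 0.01, -0.07 and -0.08, with exact two-sided permutation p-values of 0.9, 0.6 and 0.4, and 0.9 for each after adjustment over 4 ratios.

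Idh2 encodes the NADP-dependent mitochondrial isocitrate dehydrogenase, which makes NADPH from the same substrate (chr7:80094846-80115392, minus strand). It had 168, 188 and 145 CPM in WT and 179, 123 and 183 CPM in M92KO libraries, or 167 ± 21.5 and 162 ± 33.1 CPM. Here the second M92KO library stood below the rest and the other two lay within the WT range. Idh2 had the widest interval of the members, -0.40 to 0.30 around a log2 fold change of -0.05 (SE 0.15, adjusted p-value 0.936 in edgeR). Set against the summed counts of the 3 Idh3 subunits, Idh2 was 0.0867, 0.0925 and 0.0736 in WT and 0.0947, 0.0612 and 0.0852 in M92KO libraries, with an exact permutation p-value of 0.8 and again 0.9 after adjustment.

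Ogdh encodes the first subunit of the 2-oxoglutarate dehydrogenase complex, which commits 2-oxoglutarate to succinyl-CoA (chr11:6291633-6356642, plus strand). Ogdh was at 1025, 1037 and 1002 CPM in WT and at 904, 1082 and 1169 CPM in M92KO libraries (1021 ± 17.8 and 1052 ± 135 CPM). The WT libraries were the tightest set relative to their mean among the members, and the M92KO libraries straddled it, the first below and the others above every WT library. The log2 fold change of Ogdh was 0.04 (SE 0.10, 95% interval -0.19 to 0.27, adjusted p-value 0.907 in edgeR). Without the first M92KO library it was 0.14, with an adjusted p-value of 0.241 in edgeR. Ogdh was then the 1 member of 9 called at an unadjusted p-value of 0.05 (18.6% of the 16058 genes then tested, 9.62% higher and 8.96% lower). Dlst and Dld, which encode the other subunits of the complex, each had a log2 fold change of 0.13 in that fit. Whether the 7mer match of Ogdh to miR-92b-3p had a part in its values was not tested.

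Suclg1 encodes the alpha subunit of succinyl-CoA synthetase, the step that makes GTP or ATP (chr6:73248382-73276911, plus strand). Its values were 340, 357 and 337 CPM in WT and 322, 323 and 345 CPM in M92KO libraries. The first and second M92KO libraries were below every WT library, and the third was inside the WT range. Means were 345 ± 10.6 and 330 ± 13.0 CPM, and the log2 fold change of -0.06 (SE 0.07) had an adjusted p-value of 0.761 in edgeR.

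Fh1 encodes fumarate hydratase, which makes malate (chr1:175600374-175625635, minus strand). Fh1 had 332, 340 and 324 CPM in WT and 326, 329 and 358 CPM in M92KO libraries, with only the third M92KO library beyond the WT range. Mdh2 encodes the mitochondrial malate dehydrogenase, which regenerates oxaloacetate (chr5:135778480-135790398, plus strand). Mdh2 had 1004, 1069 and 1030 CPM in WT and 1044, 970 and 1042 CPM in M92KO libraries, the second M92KO library being the only one outside the WT range. Fh1 stood at 332 ± 8.04 and 338 ± 17.4 CPM with a log2 fold change of 0.02 (SE 0.07), and Mdh2 at 1034 ± 32.3 and 1019 ± 42.4 CPM with one of -0.02 (SE 0.07). Neither passed the test (adjusted p-values 0.927 and 0.937 in edgeR).

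**Figure D2:**
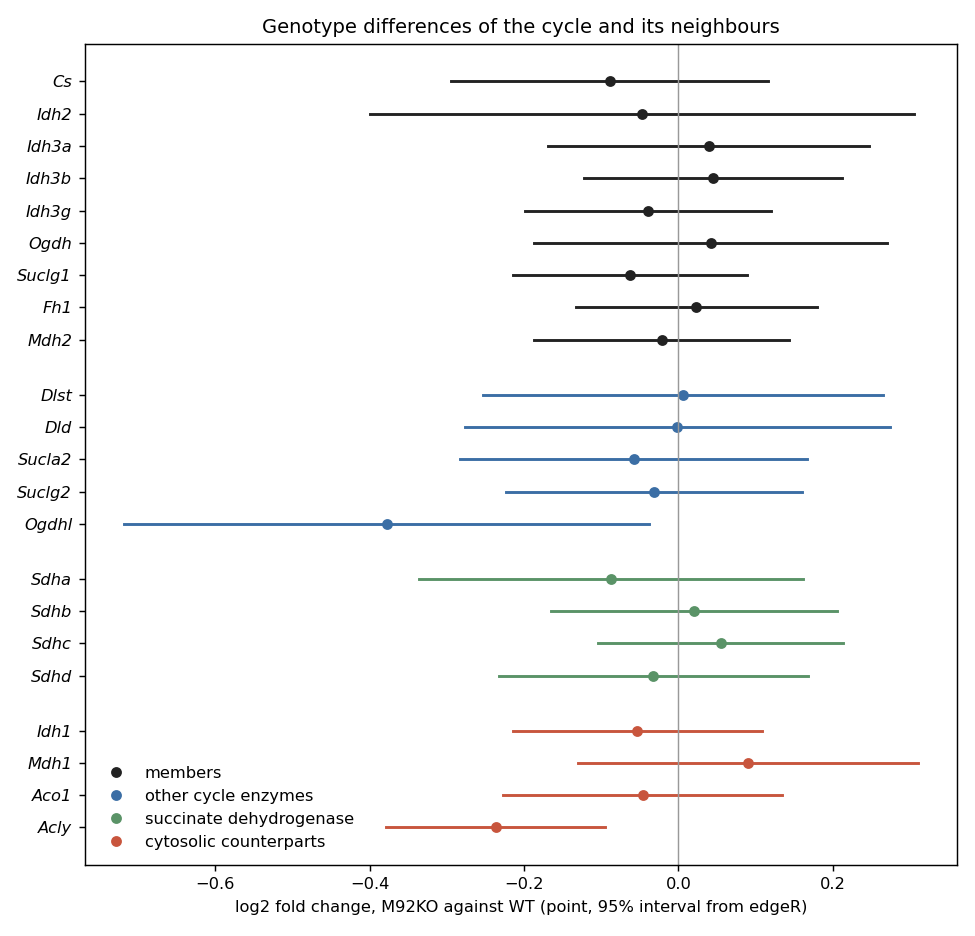
Log2 fold change of M92KO against WT for the 9 members, for 5 genes of other mitochondrial enzymes of the cycle, for 4 subunits of succinate dehydrogenase and for 4 cytosolic counterparts, each with its 95% interval from edgeR. The intervals of all 9 members include 0, and those of Ogdhl and Acly do not.

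The M92KO libraries varied more than the WT libraries. On the log2 scale the SD was larger in M92KO for 8 of 9 members, Idh3g being the exception, as compared with 67% of all genes tested. Within M92KO, the first library was the lowest in 6 of 9 members (38.3% of all genes tested) and the third was the highest in 7 of 9 (29.9%). Within WT, the second library was the highest in 8 of 9 members (32.9%). The 9 values summed to 6023, 6296 and 6004 CPM in WT and to 5697, 6016 and 6499 CPM in M92KO libraries, or 6108 ± 163 and 6071 ± 404 CPM. Members made up 0.571% to 0.637% of all counts in a library.

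Among themselves the members differed in how closely they followed their common profile over the 6 libraries. The root mean square distance on the log2 scale, after each gene was set to its own mean, ran from 0.0235 for Fh1 and 0.0285 for Suclg1 to 0.0875 for Idh3g, 0.0879 for Ogdh and 0.182 for Idh2. The 10 tested genes outside the group whose profile lay nearest to the mean of the members were Erg28 (0.0172), Zfp329 (0.0175), Ndufv1 (0.0198), Ccnc (0.0204), Entpd4b (0.0212), Ndufb8 (0.0230), Ccpg1 (0.0232), Nop14 (0.0234), Coq9 (0.0236) and Coq5 (0.0238). Ndufv1 and Ndufb8 encode subunits of respiratory complex I, and Coq9 and Coq5 act in the making of coenzyme Q. The nearest genes, Erg28 and Zfp329, are in none of the lists used here. The share of mitochondrial genes over all genes tested was not counted. The mean profile of the members ran only from -0.0592 to 0.0888 on the log2 scale, so a gene that varied little lies near it. Over 6 libraries such a profile is a description.

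**Figure D3:**
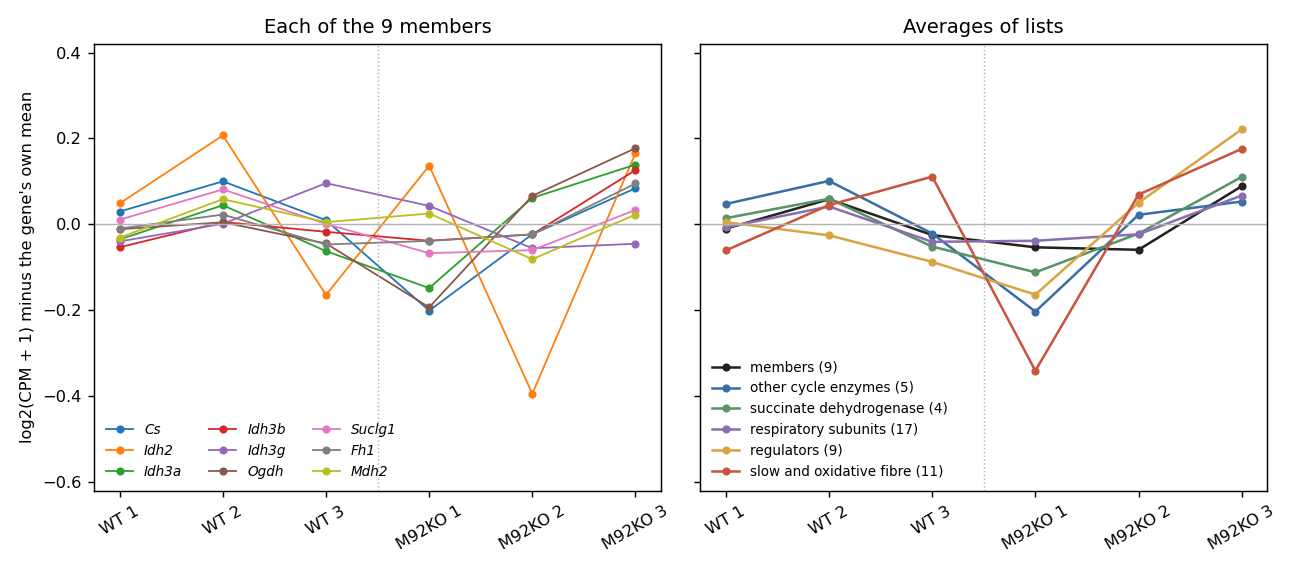
Log2(CPM + 1) minus each gene's own mean over the 6 libraries, on the left for each of the 9 members and on the right for the averages of lists, with the number of genes in each. Among the averages, the first M92KO library lies lowest for the other cycle enzymes, succinate dehydrogenase, the regulators and the slow and oxidative fibre genes. Among the members, Idh2 falls furthest in the second M92KO library.

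The cycle has other mitochondrial enzymes outside the group. Of 5 such genes, 0 were higher and 1 was lower in M92KO mice at an unadjusted p-value of 0.05 (5.47% and 6.92% of all genes tested). Their median log2 fold change was -0.03. The other subunits of the 2-oxoglutarate dehydrogenase complex, Dlst and Dld, had log2 fold changes of 0.01 and 0.00. Sucla2 and Suclg2, which encode the beta subunits of succinyl-CoA synthetase, had -0.06 and -0.03. The 1 gene called was Ogdhl, a relative of Ogdh expressed far below it, at 4.39, 4.79 and 4.07 CPM in WT and 3.83, 3.30 and 3.06 CPM in M92KO libraries. All M92KO values of Ogdhl were below all WT values, and groups were separate in either direction in 18.4% of all genes tested. The log2 fold change of Ogdhl was -0.38 (SE 0.15, adjusted p-value 0.365 in edgeR). In the fit without the first M92KO library Dlst was the 1 gene of the 5 called higher, with a log2 fold change of 0.13 and an adjusted p-value of 0.243.

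The 4 subunits of succinate dehydrogenase, the membrane-bound enzyme that hands electrons to coenzyme Q, gave 0 calls in either direction and a median of -0.01. The cytosolic counterparts Idh1, Mdh1, Aco1 and Acly gave 0 higher and 1 lower, with a median of -0.05. Of all genes tested, 5.47% were called higher and 6.92% lower. Acly encodes ATP-citrate lyase, which splits exported citrate. It was at 38.8, 37.7 and 38.9 CPM in WT and at 31.8, 32.4 and 33.7 CPM in M92KO libraries. The groups were separate for Acly, as they were in 18.4% of all genes tested. Its log2 fold change was -0.24 (SE 0.06, adjusted p-value 0.214 in edgeR).

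Of 16 genes that feed or drain the cycle (anaplerotic enzymes, transaminases and carriers), 0 were called in either direction and the median was 0.03. For this and the lists below, the shares over all genes tested were 5.47% higher and 6.92% lower. Among 20 nuclear genes of mitochondrial import, membranes and housekeeping, 1 was higher and 0 were lower, with a median of 0.03. That gene was Tomm20, a receptor of the outer membrane import machinery, with a log2 fold change of 0.29 (adjusted p-value 0.208 in edgeR, and 0.0302 without the first M92KO library). Of 17 nuclear subunits of respiratory complexes I, III, IV and V, 1 was higher and 0 were lower with a median of -0.01, the 1 being Cox6a2, the muscle form of a cytochrome oxidase subunit (log2 fold change 0.21, adjusted p-value 0.361 in edgeR). In this list the second library was the highest of WT in 14 of 17 genes (32.9% of all genes tested). The third M92KO library was the highest of M92KO in 15 of 17 (29.9%). Protein-coding genes of mitochondrial DNA were not analysed here.

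For regulators of nuclear mitochondrial genes, 9 transcription factors and coactivators, the median was 0.07. Of the 9, 0 were called higher and 0 lower (5.47% and 6.92% of all genes tested). Without the first M92KO library 4 of these were called higher at an unadjusted p-value of 0.05, namely Ppargc1a, Esrrb, Esrrg and Ppara. Over all genes then tested, 9.62% were called higher and 8.96% lower. Log2 fold changes of the 4 were 0.31, 0.55, 0.46 and 0.31. Their adjusted p-values in edgeR were 0.0940, 0.152, 0.0819 and 0.0758, none of them under 0.05. Of all libraries, the first M92KO library had the lowest average of this list (-0.16 on the log2 scale, each gene set to its own mean). Leaving it out therefore raises the M92KO mean of the list. In the lists above, the same omission gave 2 higher and 2 lower calls among the 16 feeding and draining genes, 4 higher among the 20 mitochondrial housekeeping genes, 1 higher among the 17 respiratory subunits and 0 for succinate dehydrogenase. No member had an adjusted p-value under 0.05 in that fit, in which 401 of 16058 genes (2.5%) did.

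RefSeq promoter windows (GRCm38.p6, 250 bases before to 50 after a start) were present for 8 of 9 members, Idh3a being the one without. They were searched on both strands for motifs of 3 families of factors that are known to act on mitochondrial genes. The ERR element TGACCTTG, or CAAGGTCA, was found in Ogdh alone, as compared with 1.39% of 12493 tested genes, and the NRF1 motif GCGCATGCG, or CGCATGCGC, was also found in Ogdh alone (3.46%). The ETS motif CCGGAAG, or CTTCCGG, was found in Idh3b and Idh3g (17.5%). The spellings of the NRF1 motif overlap each other in all but 1 letter. These letters were not found in the windows of the other members, which says nothing of the factors.

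Levels of the members were compared with each other per length, as CPM per kilobase of all annotated exons. In WT mice Mdh2 was the highest at 290 ± 9.08, followed by Cs (212 ± 7.06), Idh3a (206 ± 8.01), Ogdh (187 ± 3.26), Idh3b (162 ± 3.33), Idh3g (141 ± 6.86), Fh1 (97.9 ± 2.37), Suclg1 (74.6 ± 2.29) and Idh2 (64.5 ± 8.29). The ranges over 3 libraries overlapped in WT only between Cs and Idh3a. In M92KO mice Cs and Idh3a exchanged places in the order of means, and the neighbours whose ranges overlapped were Idh3a and Cs, Cs and Ogdh, Ogdh and Idh3b, and Suclg1 and Idh2. With the longest coding transcript as the length 5 ranks differed, and with the longest coding sequence 7 ranks differed, but Mdh2 stayed first and Idh2 last with each of the 3 lengths.

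**Figure D4:**
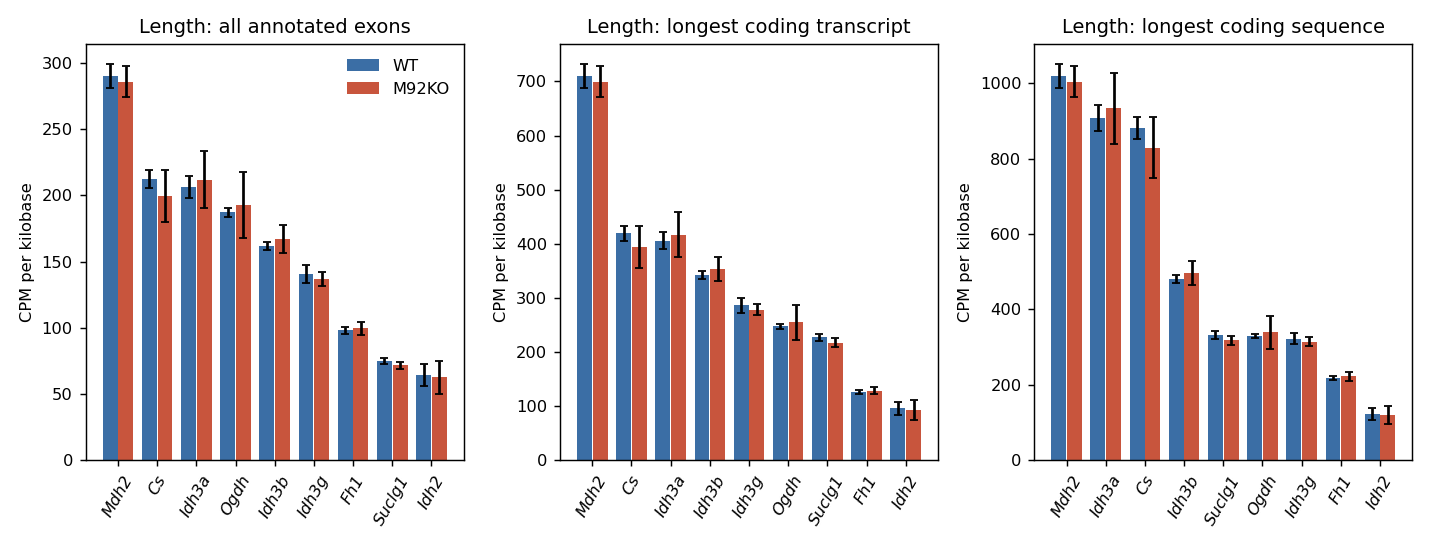
Levels of the members per length, in CPM per kilobase on axes that start at 0, with lengths from all annotated exons, the longest coding transcript or the longest coding sequence, as bars for WT and M92KO means and lines for the SD of 3 mice. Mdh2 is first and Idh2 last in all 3 panels, and the places between them depend on the length.

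Gas muscle holds several fibre types and other cells, and in whole muscle fewer cells of a type and less RNA per cell cannot be told apart. All 6 defining markers of muscle fibres were at 2029 CPM or more in every library. At an unadjusted p-value of 0.05, 1 of 6 (Des) was higher and 0 were lower, as compared with 5.47% and 6.92% of all genes tested. Of 11 markers of slow and oxidative fibres, 1 was higher (Myh2, log2 fold change 0.70) and 1 lower (Tpm3, -0.31), with a median log2 fold change of -0.22 that turned to 0.09 without the first M92KO library. That omission left 1 higher and 2 lower calls (9.62% higher and 8.96% lower among all genes then tested). With all 6 libraries Myh2 had an adjusted p-value of 0.314 in edgeR. Its value in the first M92KO library (2018 CPM) lay within the WT range of 1612 to 2239 CPM. Without that library its log2 fold change was 0.95, with an adjusted p-value of 0.0170 in edgeR. Nearly all of the summed level of the 11 markers came from Mb (5628 to 7810 CPM) and Myh2 (1612 to 4099 CPM). Log2 fold changes were below 0 in 6 of the 11. The sum was 7545 to 9253 CPM in WT and 8056, 10163 and 12296 CPM in M92KO libraries, the first M92KO library having the lowest of its group. Of 11 fast fibre markers 0 were called (2 lower without the first M92KO library), and their summed level was 119149 to 134637 CPM in WT and 130757, 118254 and 117325 CPM in M92KO libraries. Whether fibre composition had a part in the spread of the members was not tested.

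Markers of other cells were checked in the same way. For fat cells 0 of 6 tested markers were called (median 0.73), with a summed level of 313 to 364 CPM in WT and 313 to 392 CPM in M92KO libraries, almost all of it Fabp4, and Ucp1 was at 0 in every library. For red cells 0 of 5 were called (median 0.66, 74.0 to 223 CPM in WT and 143 to 336 CPM in M92KO), and for endothelial cells 0 of 6 (median -0.10, 771 to 854 and 682 to 885 CPM). Lower calls came to 3 of 8 for fibroblasts (median -0.36, 1773 to 2337 and 1207 to 1655 CPM), 3 of 6 for Schwann cells (median -0.23, 132 to 181 and 132 to 138 CPM) and 1 of 5 for leukocytes (median -0.37, 43.1 to 44.9 and 27.5 to 41.4 CPM), with 0 higher calls in these lists. Over all genes tested, 6.92% were called lower and 5.47% higher. The smallest adjusted p-values in edgeR were 0.188 for fibroblasts, 0.313 for Schwann cells and 0.304 for leukocytes. Without the first M92KO library the lower calls came to 2, 1 and 1, and 1 leukocyte marker was called higher (8.96% lower and 9.62% higher among all genes then tested). The part of these cells in the values of the members was not tested.

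**Figure D5:**
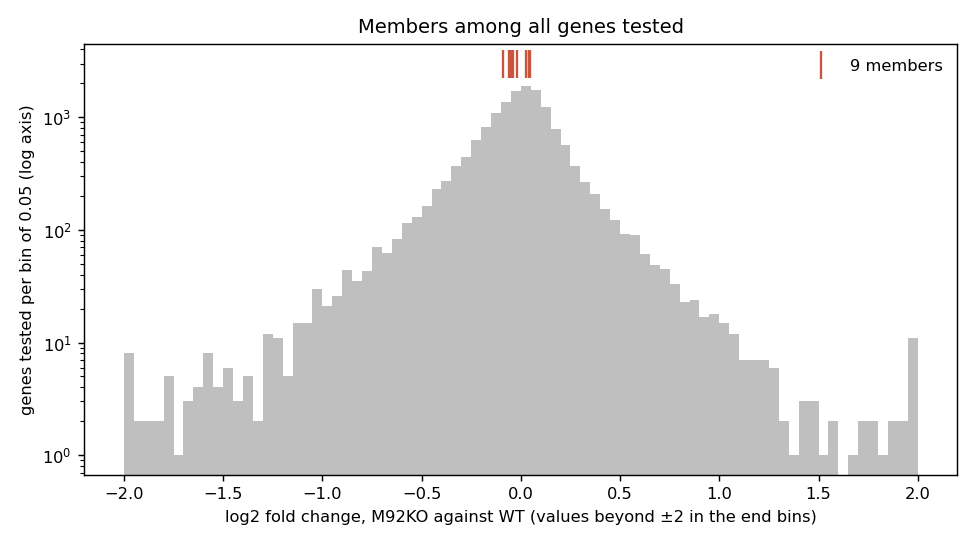
Number of tested genes in bins of the log2 fold change of M92KO against WT (grey, log axis, 15788 genes, values beyond ±2 in the end bins), with a red tick for each of the 9 members. The members lie between -0.09 and 0.05, in the centre of the distribution.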

How the data were processed

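Gas muscle RNA of 3 WT and 3 M92KO mice was measured as 6 libraries, and groups and replicate numbers were taken from the labels. The authors deposited unnormalized counts of reads on each gene symbol. Libraries were made with a SMARTer mRNA kit per the labels, and the submitters' processing notes name the builds GRCm38 and mm10. The aligner, the counting program and its strand setting are not given in the sources used here, so reads of overlapping genes may be split or shared. The 2 groups are separate mice, and p-values set the difference between genotypes against the spread between these animals.

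The main test was the quasi-likelihood test of edgeR 4.0.16 (glmQLFit, then glmQLFTest; R 4.3.3), with genotype as the sole term and TMM scaling. filterByExpr, at a minimum count of 10 and a minimum total of 15, kept 15788 genes, and the Benjamini-Hochberg adjustment ran over all of these. This count test takes the place of the study's steps (quantile normalization, log2 of the value plus 1, limma), which were run as an alternative with limma 3.58.1, as was DESeq2 1.42.0. Single values were compared with exact two-sided permutation tests. Values are CPM as mean ± SD over 3 mice. A floor of 3 counts covers counting error only, and totals per library are given with the results.

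The rule for the members uses symbols alone, but the members and the 17 other lists were chosen with earlier results of these data known, so no test was run over a list and no p-value was adjusted over a list alone. The genes named are all 9 members, any gene of a list of 9 or fewer, at most 4 of a longer list, by smallest edgeR p-value, and the 10 genes with the nearest profile. Mb, for its part in a summed level, and Nop56, for its shared exon bases, are named outside this rule. GENCODE M21 of GRCm38 supplied positions, lengths and 3′-UTRs of at least 20 bases (25731 symbols matched directly, 424 by a synonym, 8559 not matched), and RefSeq supplied microRNAs and promoters. Python 3.11.15 was used for tables (pandas 2.3.3), exact permutation tests by full enumeration (numpy 2.4.6) and figures (matplotlib 3.10.9). A gene of 1 list is not reported here. The alternatives are given in the closing section. Those that remove trends with GC content and length (lowess span 0.3) were chosen after seeing the data.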

Additional observations from a re-analysis of the deposited data

How the results depend on the processing

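Over 126 alternative values of the 9 members, the log2 fold change kept its sign in 116 and ran from -0.18 to 0.14, with a smallest adjusted p-value of 0.241 and 0 under 0.05. With the study's steps (limma), Idh3a came to -0.0159 and Idh3b to -0.0234. With a library left out in turn, the ranges were -0.14 to 0.11 for Idh2, -0.0429 to 0.0120 for Mdh2, -0.0225 to 0.12 for Idh3a, -0.00912 to 0.0750 for Idh3b, -0.0406 to 0.14 for Ogdh, -0.0199 to 0.0482 for Fh1 and -0.0423 to 0.0400 for the median of the members. The ratios then ran from -0.0448 to 0.0528 for Idh3b to Idh3a, -0.19 to 9.92e-05 for Idh3g to Idh3a, -0.143 to -0.0165 for Idh3g to Idh3b and -0.22 to 0.10 for Idh2 to the summed Idh3 subunits. Members called at an unadjusted p-value of 0.05 ranged from 0 to 1, the 1 being Ogdh without the first M92KO library. Genes called after adjustment, 0 in edgeR as reported, came to 312 with DESeq2, 6 without a filter, 42 with the study's steps and 0 to 401 with a library left out, of which 401 was without the first M92KO library. Genes called without adjustment, 1955 as reported, ranged from 1222 to 2984, with 1222 lacking the second WT library and 1272 the third. The cause of these shifts was not tested. In the order of levels per length, 5 ranks differed with the longest coding transcript and 7 with the longest coding sequence.

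The replicate number as a block gave 2 genes after adjustment, and 2 with the trends in GC content and length also removed. Libraries that share a number deviated from their group means with correlations of 0.0806, 0.0376 and 0.0151, so the samples share a number and no pairing was assumed. With 3 mice a group, the 95% intervals ran in fold from 0.862 to 1.06 for Suclg1 and from 0.758 to 1.24 for Idh2.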
